A study of Mus musculus with 4 samples.

Results

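The endoplasmic reticulum (ER) is where secreted and membrane proteins are folded, and 39 genes of its folding machinery and of the unfolded protein response were followed here. They were listed by name and found on the array through the accession of each probe, which gave 51 probes on 60 spots, out of 39429 probes, of which 27655 matched 20971 named genes. The list held 9 genes for Hsp70 and Hsp90 chaperones and their cofactors, 2 for lectin chaperones, 5 for disulfide isomerases and a peroxiredoxin, 8 for ER-associated degradation, 5 for stress sensors and transcription factors, and 10 for the translocon and the oligosaccharyltransferase. Probes numbered 1 for 29 of the genes and 2 or 3 for the other 10.

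The cells were RAW 264.7, a macrophage-like mouse line of BALB/c origin, grown in RPMI-1640 with heat-inactivated fetal bovine serum and no antibiotic. They were left untreated or kept with Lactobacillus bulgaricus, a lactic acid bacterium of fermented milk, at a multiplicity of infection of 10 for 1, 4 or 6 h. Each of the 4 groups had 1 two-colour Agilent array of RNA pooled equally from 3 cultures, with the sample in Cy5 and a Cy3 reference that the labels describe as pooled from the RNA of all groups.

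Proteins enter the ER through the Sec61 translocon, receive sugar chains from the oligosaccharyltransferase, and are folded by the Hsp70 protein BiP, the lectin chaperones and the disulfide isomerases. Proteins that stay misfolded are sent back to the cytosol and destroyed, a route known as ER-associated degradation. The sensors IRE1, PERK and ATF6 respond to an excess of unfolded protein: IRE1 splices the mRNA of Xbp1, PERK slows translation and favours ATF4, and ATF6 is cut into a transcription factor. Spliced XBP1 and cleaved ATF6 raise the genes of chaperones and of degradation. Macrophages also use this system when they start to secrete cytokines, and Toll-like receptors are known to act on IRE1 and XBP1 in them. The probes used here are not known to separate spliced from unspliced Xbp1, so splicing was not measured.

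No group had a second array, so no test was made, no p-value is given, and the precision is limited by how few arrays there were. The 4 arrays shared 1 slide in the order of time, and an effect of slide position cannot be told apart from one of time. Values are the log2 of Cy5 over Cy3, and a difference between 2 arrays is given as a log2 difference. Genes are called higher or lower where they differed by at least 1, and are called measured where Cy5 and Cy3 both stood well above background on each of the arrays compared. Probes with 10 spots gave a spot-to-spot SD of 0.13 for a difference from the untreated array; variation among cultures is not part of it. Cy5 was well above background at 49.51% to 51.75% of the 43020 spots. Of 10 macrophage markers, 9 had a probe and these were well above background in both channels on every array. The reference did not look like a pool of these 4 samples in every gene: intestinal markers summed to 13818 to 18650 in processed Cy3 and to 3260 to 7400 in Cy5, and Fabp2 among them stood at 4294 to 4637 in Cy3 and 698 to 1153 in Cy5. Every ratio rests on this reference, and the part of this difference in the members' ratios was not tested. Changes in RNA per cell and in the share of cells carrying the RNA cannot be told apart in bulk samples.

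The genes of the ER stood close to their untreated level at 1 h and below it at 4 and 6 h. At 1 h the median difference of the 33 measured members was 0.03, against 0.06 over all 10369 measured genes, and 14 of the 33 lay below 0, where 29.4% of all genes did. At 4 h the median was -0.22, against 0.00 over 10339 genes, and 28 of 34 lay below 0, where 49.1% of all genes did. At 6 h it was -0.40, against -0.01 over 10311 genes, and 28 of 34 lay below 0, where 52.1% of all genes did. These differences were small one by one. By the rule of size 1 member was lower at each time, against 0.0482%, 0.213% and 0.466% of all genes at 1, 4 and 6 h. None was higher, against 0.328%, 0.242% and 0.456%. The 1 lower member was Dad1 each time, and its reference channel had moved more than its Cy5 channel, as described with the translocon genes. At a smaller size of 1.5-fold, 8 of 34 members were lower at 6 h, against 3.38% of all genes, and 0 were higher, against 2.03%. At that size 3 were lower at 4 h, against 1.4%. Dad1 was in both counts. At 6 h Creld2, Syvn1 and Xbp1 moved by -0.30, -0.51 and -0.45 in the Cy5 channel alone, short of that size. Manf, Herpud1, Dnajb9 and Dnajb11, also among the 8, passed it there. Outside the 8, Pdia3 (-0.61) and Rpn2 (-1.21) passed it in Cy5 alone. The share of all genes lower by that size in Cy5 alone is not given here.

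The 3 differences share the untreated array, so the members' values at the 3 times are not separate evidence. Successive arrays do not use it. No member was higher or lower by 1 in either step, against 0.38% of all genes lower and 0.038% higher from 1 to 4 h, and 0.143% lower and 0.19% higher from 4 to 6 h. From 1 to 4 h, 28 of 33 members lay below 0 with a median of -0.24, against 62.3% and -0.05 for all genes. From 4 to 6 h, 26 of 35 lay below 0 with a median of -0.18, against 53.6% and -0.02. These steps share the 4 h array with each other.

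**Figure D1:**
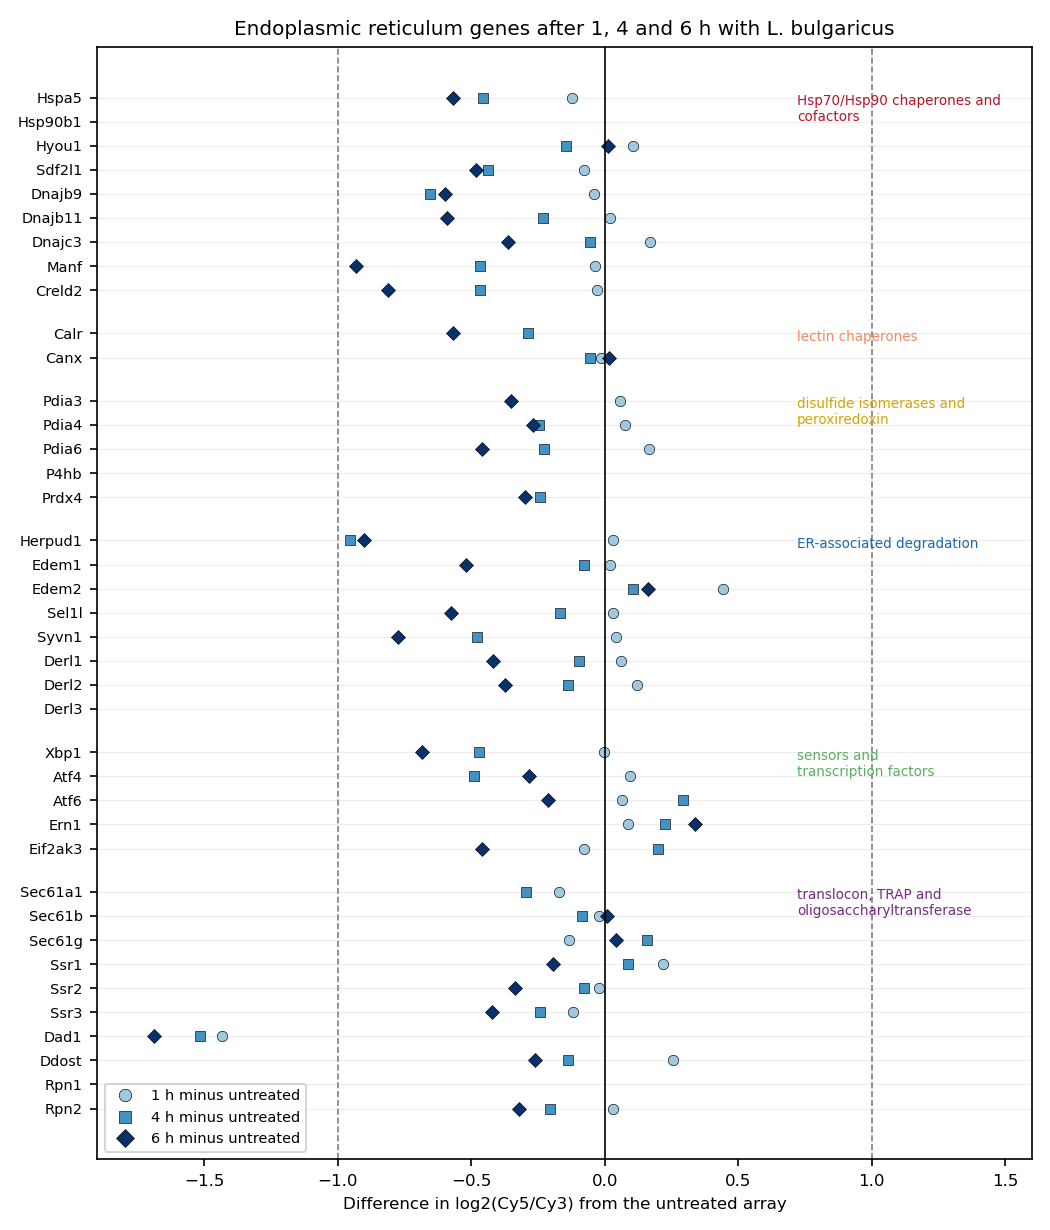
Log2 difference from the untreated array (horizontal axis) of each listed gene, grouped by role, at 1 h (circles), 4 h (squares) and 6 h (diamonds). Dashed lines mark the size of 1; a missing symbol means that the gene was not measured at that time. Most circles lie near 0, most diamonds lie left of it, and Dad1 alone lies past a dashed line.

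The promoters of several members share a sequence known as the ER stress response element (ERSE), which ATF6 binds together with NF-Y. It joins CCAAT and CCACG across 9 bases of any kind, and a shorter form, ERSE-II, joins ATTGG and CCACG across 1 base, so both contain CCACG. Both strands of the RefSeq windows (GRCm38.p6, 250 bases before to 50 after the annotated start) were searched. Windows existed for 33 of the 39 members, 35 windows in all. ERSE stood in those of 9 members, and in 39 of all 32851 windows (0.119%). ERSE-II stood in those of Herpud1 and Dnajb11, and in 0.0365% of all windows. The core CCACG alone was in the windows of 27 members and in 32.8% of all windows. TGACGTGG, an element bound by XBP1, was in no member's window and in 0.676% of all, and TGATGNAA, the element of ATF4, was in that of Herpud1 and in 3.97% of all. Stretches upstream of the start are shown for 6 members, because 5 of them are measured members with an upstream element and the lowest 6 h differences, and Canx, for contrast, stood near 0. Capitals mark the ERSE, or in Herpud1 the ERSE-II, and each stretch runs along its gene's strand. In Creld2 and Calr the element lies on the opposite strand and so reads from CGTGG to ATTGG.
Herpud1, chr8:94386347-94386417, plus strand: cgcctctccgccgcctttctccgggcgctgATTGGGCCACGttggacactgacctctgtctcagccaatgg
Creld2, chr15:88819490-88819568, plus strand: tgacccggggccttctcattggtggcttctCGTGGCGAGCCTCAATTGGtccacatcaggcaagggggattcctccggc
Syvn1, chr19:6046502-6046575, plus strand: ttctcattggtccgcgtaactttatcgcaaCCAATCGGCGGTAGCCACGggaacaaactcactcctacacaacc
Hspa5, chr2:34771995-34772073, plus strand: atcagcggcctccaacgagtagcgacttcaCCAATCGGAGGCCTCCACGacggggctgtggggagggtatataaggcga
Calr, chr8:84847045-84847123, minus strand: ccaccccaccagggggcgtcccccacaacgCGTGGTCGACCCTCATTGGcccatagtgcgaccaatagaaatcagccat
Canx, chr11:50325770-50325848, minus strand: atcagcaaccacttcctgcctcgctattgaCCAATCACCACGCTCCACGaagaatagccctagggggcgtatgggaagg

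The 11 members with either element were Hspa5, Calr, Derl3, Hsp90b1, Canx, Pdia6, Dnajc3, Creld2, Syvn1, Herpud1 and Dnajb11, and 9 of them were measured at 4 and 6 h. At 4 h all 9 lay below 0, with a median of -0.29, against 14 of 19 and -0.17 for members with a window and neither element, and 49.1% of all genes. Canx (-0.05) and Dnajc3 (-0.06) were within the spot SD of 0.13. In Cy5 alone these lay above 0 at 4 h, at 0.23 and 0.17, and the rest of the 9 lay below. At 6 h 8 lay below 0, with a median of -0.57, and Canx was the exception. Of the 22 members with a window and neither element, 20 were measured at 6 h, 16 lay below 0 and their median was -0.34, against 52.1% of all genes below 0. The 2 sets overlapped widely, from -0.90 to 0.02 with an element and from -1.69 to 0.34 without. A match describes letters in a window and shows no binding.

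Among the Hsp70 and Hsp90 chaperones and cofactors, 8 of 9 were measured, and their median went from -0.03 at 1 h to -0.45 at 4 h and -0.58 at 6 h. All 8 lay below 0 at 4 h and 7 did at 6 h. Hspa5, which encodes BiP, the central Hsp70 of the ER, had log2 ratios of 0.38 in untreated cells and 0.25, -0.08 and -0.19 at 1, 4 and 6 h. Its processed Cy5 signal was 27584, 28071, 21958 and 22236 in that order, so the 2 later arrays were the low ones. The difference at 6 h was -0.57, which is more than the spot SD of 0.13 and less than the rule of size.

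Manf, a secreted cofactor of BiP that protects cells under ER stress, had the lowest value of the chaperone groups. Its log2 ratios were 0.46, 0.42, -0.01 and -0.47, a difference of -0.93 at 6 h. Cy5 alone moved by -0.91 and the reference by 0.02, and the processed Cy5 signal went from 16060 untreated to 9631 at 6 h. Dnajb9 (ERdj4), a J-domain cofactor of BiP, was already low at 4 h. Its log2 ratios were 0.00, -0.04, -0.66 and -0.60, with processed Cy5 signals of 1009, 847, 562 and 558. A second probe of Dnajb9 was dim and was not measured. Dnajb11 (ERdj3), a cofactor that binds unfolded chains with BiP, stepped down later, with ratios of 0.24, 0.26, 0.01 and -0.35.

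Sdf2l1, a partner of BiP and Dnajb11, stood at 0.48, 0.40, 0.05 and 0.00, a difference of -0.48 at 6 h, of which Cy5 alone held -0.19 and the reference 0.29. Dnajc3 (p58IPK), a J-domain protein also known to inhibit PERK, differed by 0.17, -0.06 and -0.36 at 1, 4 and 6 h. Hyou1, a large Hsp70 that exchanges the nucleotide of BiP, was the member of this group that did not follow the others. Its ratios were 0.85, 0.95, 0.70 and 0.86, a difference of 0.01 at 6 h, although Cy5 and the reference alone had both moved, by -0.32 and -0.33. Hsp90b1 (GRP94), the Hsp90 of the ER, was not measured against the untreated array because its spot there was marked as an outlier. With that spot kept, its differences were -0.22, -0.15 and -0.38.

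Creld2, a protein of the ER known to be induced by ER stress, gave the firmest reading of spot error, since its probe was printed on 10 spots. The mean log2 ratio was 0.07 ± 0.12 (SD, 8 spots) on the untreated array and 0.04 ± 0.08 (SD, 9 spots) at 1 h. It was -0.40 ± 0.05 (SD, 8 spots) at 4 h and -0.75 ± 0.06 (SD, 7 spots) at 6 h, with outlier spots left out. The spots of the untreated array ran from -0.11 to 0.24 and overlapped those of 1 h. The spots of 4 h (-0.48 to -0.31) and 6 h (-0.81 to -0.63) overlapped neither those nor each other. Spots of 1 array share one RNA pool and are not replicates of the condition. Of the 6 h difference of -0.81, Cy5 alone held -0.30 and the reference 0.52.

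**Figure D2:**
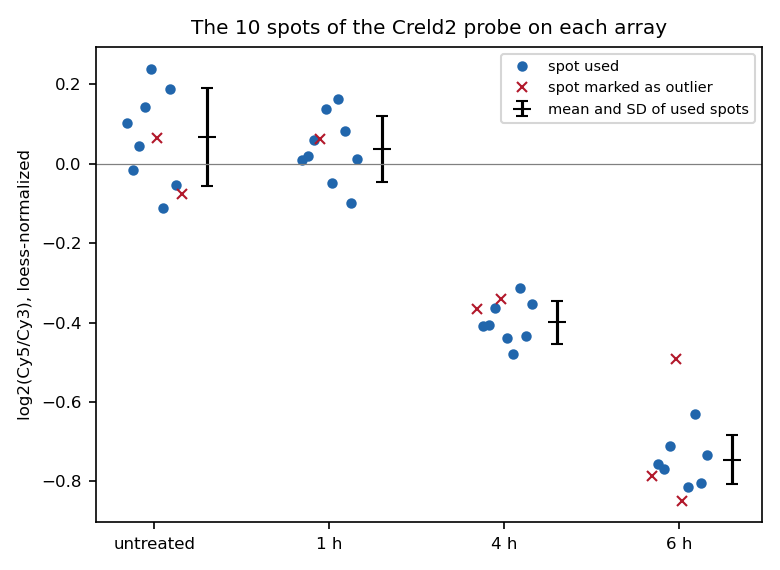
Log2 ratio (vertical axis) at each of the 10 spots of the Creld2 probe from untreated to 6 h, with the mean and SD of the spots used. The spots of the untreated and 1 h arrays mix around 0, and those of 4 h and 6 h form lower bands around -0.40 and -0.75.

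The lectin chaperones hold glycoproteins until they are folded, and the 2 genes differed from each other. Calr (calreticulin), the soluble one, had ratios of 0.55, 0.26 and -0.02 on the untreated, 4 h and 6 h arrays, a difference of -0.57 at 6 h. Its spot on the 1 h array was marked as an outlier, and with that spot kept the 1 h difference was 0.02. Canx (calnexin), the membrane-bound one, had ratios of -0.20, -0.21, -0.25 and -0.18, a difference of 0.02 at 6 h. In Canx both channels were brighter at 6 h, by 0.46 in Cy5 and 0.45 in the reference, and the ratio stayed level.

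The disulfide isomerases form and reshuffle disulfide bonds. Pdia6 differed by 0.17, -0.23 and -0.46 at 1, 4 and 6 h, and its 2 probes had the same sign where both were measured (-0.51 and -0.41 at 6 h). Pdia3 (ERp57), which works with the lectin chaperones, differed by 0.06 at 1 h and -0.35 at 6 h. Its 4 h spot was an outlier. Pdia4 (ERp72) stood at 0.17, 0.25, -0.07 and -0.09, with differences of 0.08, -0.25 and -0.27. P4hb, the classical isomerase PDI, had outlier spots on the untreated and 1 h arrays, and its differences with them kept were 0.17, -0.02 and 0.04. The measured isomerases and Prdx4 together had medians of 0.08 (3 members), -0.24 (3) and -0.33 (4), and all 4 lay below 0 at 6 h.

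Prdx4, the peroxiredoxin of the ER, was bright or dim in both channels together. Its processed Cy5 signal was 1163, 21.3, 332 and 6612, and the Cy3 signal of the same reference RNA was 1135, 9.1, 366 and 7711. The 6 h array was the brightest and the 1 h array the dimmest in both. At 1 h the probe was not well above background in either channel, which put Cy5 at least 7.82-fold lower than untreated, while the reference itself differed by -2.91 on the log2 scale. For such a bound the normalized Cy5 of the bright array is set against whichever is greater on the dim array, the reading of the probe or the weakest signal that passed as above background. Among genes measured or bounded, 0.0361% had a Cy5 bound lower by at least 1 at 1 h. Where both channels were bright enough, the ratio differed by -0.24 at 4 h and -0.30 at 6 h.

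In ER-associated degradation 7 of 8 genes were measured, with medians of 0.04, -0.14 and -0.52 at 1, 4 and 6 h, and 6 lay below 0 at both later times. Herpud1, a membrane protein that assembles the degradation complex, was among the lowest of all members. Its log2 ratios were 0.37, 0.40, -0.59 and -0.53, and its processed Cy5 signals 2812, 3236, 1536 and 1427. The step lay between 1 and 4 h, where the ratio differed by -0.99 and Cy5 alone by -1.03, and the step from 4 to 6 h was 0.05. Against untreated cells the differences were 0.03, -0.95 and -0.90, just under the rule of size, with the reference moved by 0.20 at 4 h and -0.06 at 6 h.

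Syvn1 (HRD1), the ubiquitin ligase of the complex, had ratios of 0.07, 0.11, -0.41 and -0.71, a difference of -0.78 at 6 h, with -0.51 in Cy5 and 0.26 in the reference. Sel1l, the partner that stabilises Syvn1, followed later, at 0.31, 0.34, 0.14 and -0.27, a difference of -0.58 at 6 h. Edem1, a mannosidase-like protein that marks misfolded glycoproteins, differed by 0.02, -0.08 and -0.52, so its move came after 4 h. Edem2, which trims the first mannose, was the exception, with ratios of 0.23, 0.67, 0.33 and 0.39 and a difference of 0.44 at 1 h and 0.16 at 6 h.

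The derlins are membrane proteins of the exit channel. Derl1 differed by 0.06, -0.09 and -0.42, with its 2 probes at -0.46 and -0.37 at 6 h, and Derl2 by 0.12, -0.14 and -0.37, with 3 probes between -0.44 and -0.29 at 6 h. Derl3, known from secretory cells, was dim. Its processed Cy5 signal was 36.0, 45.1, 89.0 and 161 from untreated to 6 h, well above background each time, while Cy3 was so at 4 h alone. No ratio was therefore formed. The Cy5 signals rank opposite to most members, at a level near the limit of detection.

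The sensors and transcription factors had medians of 0.07, 0.20 and -0.28 over 5 measured genes. The 4 h median turned to -0.01 in the deposited ratios and in Cy5 alone, to -0.09 without background correction and to -0.14 without spots of outlying local background. Xbp1, the transcription factor whose mRNA IRE1 splices, had ratios of 0.33, 0.33, -0.14 and -0.35, and differences of 0.00 at 1 h, -0.47 at 4 h and -0.68 at 6 h. Its processed Cy5 signals were 16913, 20339, 13600 and 13713. Atf4, the factor translated when PERK is active, differed by 0.10, -0.49 and -0.28, so the 4 h array was its lowest, and its 2 probes read -0.50 and -0.48 at 4 h.

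The 3 sensors themselves had higher loess-normalized ratios at 4 h than untreated, unlike Xbp1 and Atf4. Only in Atf6 was Cy5 higher at 4 h both alone (0.27) and in processed signals (0.25). Atf6 stood at 0.28, 0.35, 0.57 and 0.07, highest at 4 h, with differences of 0.07, 0.29 and -0.21. Eif2ak3, which encodes PERK, also had its highest ratio at 4 h, at 0.19, 0.12, 0.39 and -0.27. At 4 h Cy5 alone differed by -0.01 from untreated and the reference by -0.21. Eif2ak3 then stepped by -0.66 from 4 to 6 h, to a difference of -0.46 at 6 h. Its processed Cy5 signals were 274, 249, 272 and 173. Ern1, which encodes IRE1, had ratios of -0.20, -0.11, 0.03 and 0.14, and differed by 0.34 at 6 h. This reading rests on a dim spot with a bright surround: on the untreated array its local background was 778 in Cy5 and 339 in Cy3, against 26.0 to 29.5 in Cy5 on the others. Its processed Cy5 signal was 160 untreated and 69.1, 74.1 and 100 afterwards, whereas the normexp-corrected Cy5 channel alone gave differences of 1.22 at 4 h and 1.42 at 6 h. The 2 ways of correcting the background thus put the Ern1 channel on opposite sides of 0. In processed signals Cy5 and the reference of Ern1 moved together, by -1.11 and -1.10 at 4 h and by -0.68 and -0.76 at 6 h. The higher Ern1 ratio was therefore nearly absent in processed signals.

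**Figure D3:**
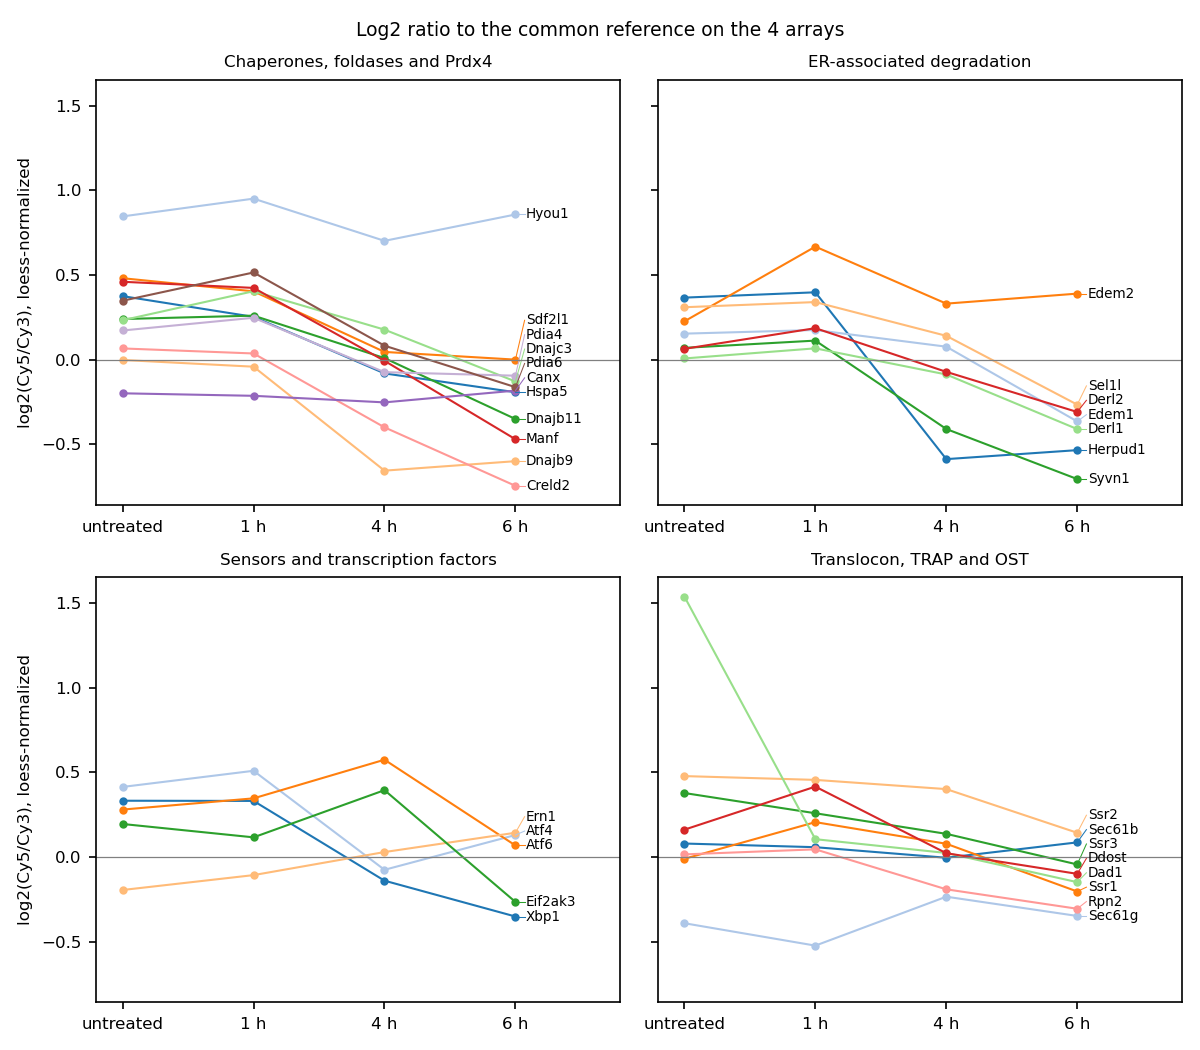
Log2 ratio to the common reference (vertical axis) from untreated to 6 h for members measured on all 4, in 4 panels by role. Herpud1 and Dnajb9 step down between 1 and 4 h, Manf, Creld2 and Syvn1 keep stepping down to 6 h, and Dad1 stands apart on the untreated array.

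In the translocon and oligosaccharyltransferase, medians were -0.02, -0.14 and -0.29 at 1, 4 and 6 h over 9, 9 and 8 measured genes. In Cy5 alone the median at 6 h was 0.09 and 2 of 8 lay below 0, so the lower median of this group was not seen in the cell channel. Among its members Ssr3 and Rpn2 were below 0 in Cy5 alone, at -0.38 and -1.21. Ssr1, Ssr2 and Ssr3 encode subunits of TRAP, the complex beside the translocon, and differed by -0.19, -0.33 and -0.42 at 6 h. In Ssr2 Cy5 alone held 0.02 of this and the reference 0.36. The 2 probes of Ssr3 differed in sign at 1 h (-0.34 and 0.10) and had the same sign later. Sec61b and Sec61g, small subunits of the channel, stood at 0.01 and 0.04 at 6 h, and the 2 probes of Sec61b differed in sign at 1 and 6 h.

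Ddost and Rpn2, subunits of the oligosaccharyltransferase, differed by -0.26 and -0.32 at 6 h. For Rpn2 both channels had moved further than their ratio, by -1.21 in Cy5 and -0.88 in the reference, with processed Cy5 signals of 5483, 4711, 3232 and 2477. Rpn1 had outlier spots on all 4 arrays, and its differences with them kept were -0.07, -0.11 and -0.52. Sec61a1, the pore itself, differed by -0.17 and -0.29 at 1 and 4 h. At 6 h its Cy5 signal was 23.9, not well above background, after 2550, 2668 and 1665. That gave a bound of at least 13.1-fold lower in Cy5, against 0.117% of genes with such a bound at 6 h. The reference at the same spot had also moved, by -3.08, from a processed Cy3 of 2219 to 83.3.

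Dad1, a small subunit that holds the oligosaccharyltransferase together, differed by -1.43, -1.51 and -1.69. The ratios were 1.54, 0.10, 0.02 and -0.15, so the untreated array alone stood apart. There the Cy3 signal of the reference was 4964, against 22485, 24563 and 28156 on the other arrays, and Cy5 was 14468, against 24513, 25090 and 25275. Cy5 alone was therefore higher after treatment, by 0.62, 0.67 and 0.62, and the lower ratio came from the reference, which moved by 2.05, 2.19 and 2.30. The scanner software marked the local background of that spot as outlying on the untreated and 6 h arrays. A second probe of Dad1 was not above background on any array.

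**Figure D4:**
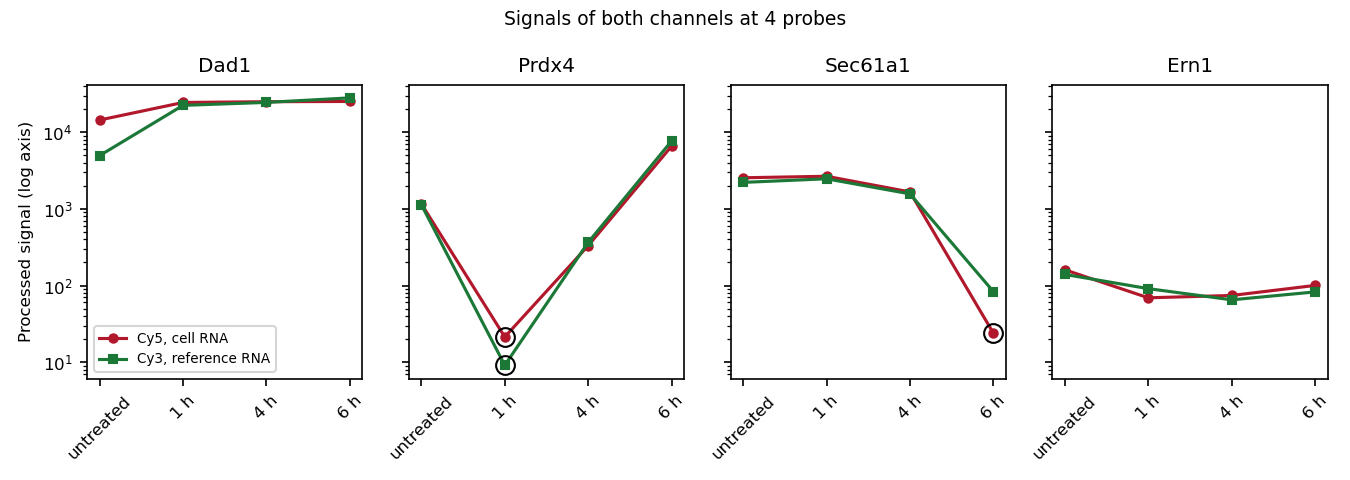
Processed signal (log axis) in Cy5 and Cy3 on the 4 arrays at the probes of Dad1, Prdx4, Sec61a1 and Ern1; circles mark signals not well above background. In Dad1 the Cy3 signal is low on the untreated array alone, and in Prdx4 and Sec61a1 the 2 channels move together.

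The channels were also read apart for all members. Cy5 alone had a median of 0.01 at 1 h, -0.18 at 4 h and -0.33 at 6 h over the measured members, against 0.05, 0.05 and 0.04 over all genes. The reference, which is the same RNA on every array, had medians of -0.03, 0.03 and 0.16, against -0.01, 0.04 and 0.08. In Cy5 alone 16 of 33, 24 of 34 and 24 of 34 members lay below 0, against 38.4%, 43.3% and 45.3% of all genes. The reference had moved by at least 1 in 2, 2 and 3 members, drawn from Dad1, Ern1 and Prdx4, against 1.16%, 1.38% and 2.56% of all genes. In Manf, Herpud1, Dnajb9 and Dnajb11 the reference moved by -0.07 to 0.02 at 6 h, and the ratio was nearly all Cy5 by this reading. In processed signals their reference moved by 0.17, -0.04, -0.21 and 0.19 in that order. Their processed Cy5 moved by -0.74, -0.98, -0.86 and -0.50. In Creld2, Sdf2l1 and Edem1 the reference held about as much of the ratio as Cy5 or more. In the scanner's processed signals the Cy5 medians of the members were 0.14, -0.17 and -0.30, against 0.16, 0.06 and 0.05 over all genes.

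**Figure D5:**
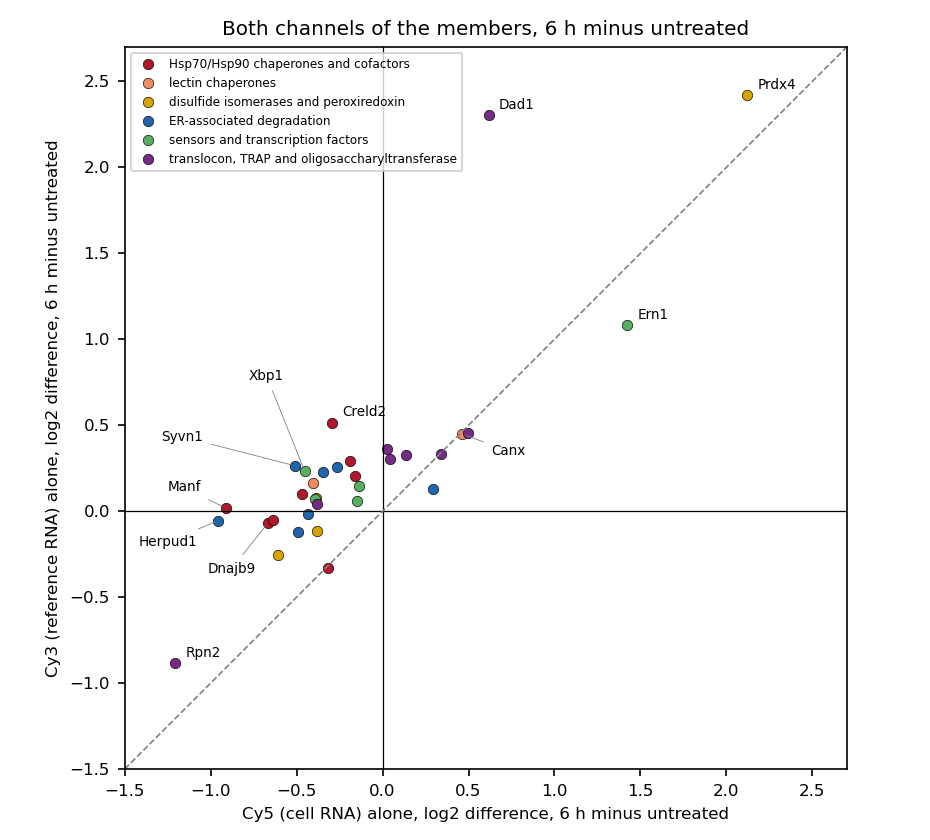
Log2 difference between the 6 h and untreated arrays in Cy5 alone (horizontal axis) and in the Cy3 reference alone (vertical axis) for the 34 measured members, coloured by role. Points on the dashed diagonal have an unchanged ratio. Manf and Herpud1 lie left near a reference difference of 0, while Dad1, Prdx4, Ern1 and Rpn2 lie where the reference moved.

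Set side by side, the chaperones of the 3 folding groups, with Prdx4 counted, had medians of 0.00, -0.25 and -0.47 at 1, 4 and 6 h. Of these, 13 of 13 lay below 0 at 4 h and 12 of 14 at 6 h. In Cy5 alone Canx and Dnajc3 lay above 0 at 4 h, at 0.23 and 0.17, and the rest of the 13 lay below. The degradation genes had medians of 0.04, -0.14 and -0.52. Their median step was -0.26 from 1 to 4 h and -0.30 from 4 to 6 h. The sensors and transcription factors together had 0.07, 0.20 and -0.28. At 4 h 3 of these 5 lay above 0, the sensors Atf6, Ern1 and Eif2ak3, while Xbp1 and Atf4 lay below. In Cy5 alone Atf6 differed by 0.27 and Eif2ak3 by -0.01 at 4 h. Ern1 differed by 1.22 in Cy5 alone and by -1.11 in processed Cy5, with -1.10 in the processed reference. The 6 h medians in Cy5 alone, in the same order of groups, were -0.38, -0.43 and -0.15. No test of a difference between these groups could be made. Their ranges overlapped at 6 h: -0.93 to 0.02 for chaperones, -0.90 to 0.16 for degradation and -0.68 to 0.34 for sensors and transcription factors.

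Other genes of the same pathways were counted in 6 further lists. Among targets of the PERK branch, with ATF4 and CHOP, 9 of 10 were measured and the medians were 0.40, -0.04 and 0.23 at 1, 4 and 6 h. None of the 9 lay below 0 at 1 h, when 29.4% of all measured genes did. This list spread widely. Chac1, which degrades glutathione, was the 1 gene of this list past the rule of size, higher by 1.32 at 1 h and lower at 6 h, with a difference of -1.73, of which Cy5 alone held -0.78 and the reference 0.95. Ddit3, which encodes CHOP, differed by 0.39, -0.04 and 0.89, and Atf3, a stress-induced repressor, by 0.59, 0.13 and 0.94. Sesn2 and Trib3, which are also ATF4 targets, stood at -0.78 and -0.65 at 6 h. Targets of this branch lay on both sides of 0 at 6 h.

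Of the other folding and redox genes 23 of 25 were below 0 at 6 h, with a median of -0.26, and Sil1, a nucleotide exchange factor of BiP, was lowest at -0.66, Serp1 highest at 0.14. The other translocon, signal peptidase and oligosaccharyltransferase genes had 20 of 25 below 0 with a median of -0.23, from Spcs3 (-0.59) to Ost4 (0.57). The other degradation genes had 10 of 18 below 0 with a median of -0.21, from Ubxn8 (-0.51) to Ube2g2 (0.73). The genes of ER to Golgi transport had 14 of 22 below 0 with a median of -0.04, from Lman1 (-0.61) to Sec24c (0.16). The list of other sensors and their processing enzymes also held Bbc3, a BCL2 family gene that is neither. This list had 7 of 10 below 0 with a median of -0.05, from Atf6b (-0.34) to Bbc3 (0.57). Bbc3 was higher by 1.04 between 4 and 6 h. Apart from Chac1 and Bbc3, no gene of the 6 lists passed the rule of size in any of the 5 comparisons. At 6 h 52.1% of all measured genes lay below 0, with a median of -0.01.

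Transcripts of other cell types were present on these arrays, and their part in the members' values was not tested. Intestinal markers, 10 of 10 on the array, were well above background in Cy5 at 10, 10, 9 and 8 from untreated to 6 h. Their summed processed Cy5 was 3656, 7400, 5054 and 3260. Plasma cells carry much ER, and 8 of their 10 markers had a probe, Derl3 among them. Of these, 4, 5, 5 and 6 were above background in Cy5, with sums of 2609, 3270, 3752 and 3972. Sdc1 gave the largest part of these sums, at 1639, 2358, 2519 and 2763. Jchain stood at 806, 692, 914 and 729 in Cy5 and at 2074, 1887, 1550 and 1147 in Cy3, and Mzb1 at 93.7, 120, 160 and 240 in Cy5, both above background in both channels on every array. Prdm1 and Pou2af1 were not above background on any array, with Prdm1 at a processed Cy5 of 4.9 to 8.2. Markers of exocrine glands, another tissue rich in ER, summed to 509, 1443, 599 and 2608 in Cy5 with 5 of 10 above background on every array, while the pancreatic enzyme genes Cpa1, Cela2a, Pnlip, Prss2 and Amy2a5 were not above it on any. Smooth muscle markers, 8 of 8 in Cy5, summed to 3780, 5345, 7250 and 6227, and fibroblast markers, 4 of 8, to 217, 360, 701 and 516, so both sums were highest at 4 h.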

How the data were processed

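The scanner software was Agilent Feature Extraction 10.5.1.1 (submitters' processing notes). The deposited files give, per the file headers, intensity values (median brightness of spot and local background, and processed signals that the software had background-subtracted and dye-normalized) and Cy5 over Cy3 as a log10 ratio. The deposited series table holds the same log10 ratio in 43020 of 43020 features on each array, within rounding. What else the authors did is not given here.

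From the deposited median intensity values, log2 ratios were computed: normexp (offset 50) and loess within each array in limma 3.58.1 under R 4.3.3, control and outlier spots at weight 0, and no step between arrays. Median signals replaced the mean signals named in the plan. Outlier spots (1.546% to 1.843%) were left out, replicate spots averaged, then measured probes of a gene. For Cy5 or Cy3 alone, loess was followed by Aquantile. Probes were named by unversioned accession in RefSeq (GRCm38.p6); 11774 had no match. The array was annotated on mm9, so probes have no coordinates here.

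The members, other lists, markers and promoter motifs were chosen with earlier results of these data known. All members are named, with the extremes or called genes of other lists. The alternatives changed background correction, normalization, source, filters, probe choice and size, and 1 (leaving out spots with outlying local background) was chosen after seeing the data. The steps were run on simulated data, a copy of the untreated array with added spot noise and known changes. The copy holds no variation among cultures, and the accuracy of the sizes reported here was not drawn from it. Tables were made in Python 3.11.15 (pandas 2.3.3 with numpy 2.4.6) and plots in matplotlib 3.10.9.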

Additional observations from a re-analysis of the deposited data

How the results depend on the processing

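The median of the members lay between -0.26 and -0.16 at 4 h and between -0.55 and -0.33 at 6 h under all alternatives, so it stayed below 0 at both times. Centring each array on its median without loess moved the 1 h median to 1.04, with all genes at 0.86. It left 21 members higher and 0 lower at 1 h. At 6 h it put the median at -0.55, with all genes at -0.15, and 3 members lower (Dad1, Herpud1 and Manf). Shares of all genes past the size of 1 are not given for this or the later alternatives. Member counts under them show how the calls moved and not how the members stood against all genes. The median from 1 to 4 h was -1.20 under that centring and -0.39 after scaling between arrays. In Cy5 alone 1 member was higher at 1 h, 1 at 4 h and 2 at 6 h (Ern1, joined by Prdx4 at 6 h). In that channel 0 were lower at 1 h, 1 at 4 h (Prdx4, -1.67) and 1 at 6 h (Rpn2, -1.21). Dad1 turned there to 0.62, 0.67 and 0.62 at 1, 4 and 6 h, and the median of the members from 4 to 6 h was -0.081. The count of 1 lower member, Dad1, became 0 at each time with no filter on dim probes, without members whose reference moved by at least 1, and without spots of outlying local background. Processed signals and deposited ratios gave 2 lower members at 4 h, Herpud1 joining Dad1. At a size of 1.5-fold, 3 were lower at 4 h and 8 at 6 h, Dad1 among them each time. With an offset of 10, 1 (Ern1) was higher at 6 h. Of 43 member differences of at least 0.25 in size, 7 changed sign in Cy5 alone (Dad1 at 3 times, Ddost at 2, Prdx4 and Ssr2) and 1 without background correction (Ern1 at 6 h). The 4 h median of 0.20 of the sensors and transcription factors was -0.01 in the deposited ratios and in Cy5 alone. The causes were not tested. No paired analysis was possible because each group has 1 array and carries no replicate number, and leaving out a replicate was not possible for the same reason. Precision is limited by the number of arrays, and for Ern1, Eif2ak3 and Derl3 by signals near background.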
